A study of Mus musculus with 6 samples.

Results

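The genes described here are 72 of the 32719 genes counted in mouse vagal ganglia, chosen by name: every gene whose symbol is Gpr followed by a number and at most 1 letter, with Gpr65 and Gpr151 left out. Symbols of this form were given to G protein-coupled receptors that had no known ligand when they were found. The name is not a family, and the label of orphan receptors holds for only some of the 72, since ligands are now known for several and 9 are Golgi, lysosome or cilium proteins outside the main receptor class. Of the 72, 49 had enough counts to be tested and 23 did not. All measured values stand for RNA, not for receptor protein.

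The study sequenced RNA from vagal jugular-nodose ganglia of wild-type male C57BL/6J mice, in 6 libraries. By the sample titles, 3 libraries were controls and 3 were treated. Per the protocol, osmotic pumps under the skin delivered PBS, alone or with S961, a peptide that blocks the insulin receptor. The dose was 10 nmol per week, given over 2 weeks. All 6 libraries carry S961 as their treatment label, so which mice received PBS rests on the titles and the protocol, and their age is not given in the sources used here. Because the labels do not say that the replicates of a group are separate animals, p-values measure the spread between these samples, which may be technical.

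The tissue label reads spinal cord, whereas the cell labels name the ganglia. Of 9 markers of spinal cord neurons and central glia, Mog had 2 counts, Olig1 had 5 and Olig2 had 8 over all 6 libraries. The 9 summed to 60.6 to 62.1 CPM (each library's counts scaled to a common library total) in controls and to 45.7 to 59.3 CPM in treated libraries, most of it from Slc5a7, Aqp4 and Slc1a2, the 3 that were tested, while 7 pan-neuronal markers summed to 5066 to 6574 CPM. Libraries held 12898607 to 33522486 gene counts. Treated replicate 3, the smallest, stood apart: its correlations with the others across genes were 0.919 to 0.936, against 0.971 to 0.986 among those 5. The 11 macrophage markers summed to 53.0 to 129 CPM in controls and to 66.4, 123 and 494 CPM in treated replicates 1, 2 and 3. The 7 nodose markers summed to 635 to 663 CPM in controls and to 498, 553 and 277 CPM in the treated libraries. The 6 jugular markers summed to 210 to 255 CPM in controls and to 468, 285 and 568 CPM in the treated libraries. No marker of those 3 lists was at 0.

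A G protein-coupled receptor crosses the membrane several times and passes a signal from outside the cell to a heterotrimeric G protein, which then acts on adenylyl cyclases, phospholipases or ion channels. Class A holds most such receptors, and class C receptors carry a large extracellular part. Vagal sensory neurons are known for the receptors by which they read gut hormones, nutrients and inflammatory signals. Nodose neurons come from an epibranchial placode and supply internal organs, whereas jugular neurons come from the neural crest.

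Many of the genes have a compact build. Of 70 with a coding sequence in the GENCODE M21 annotation, 41 (58.6%) had their coding sequence in a single exon, against 16.3% of 22028 protein-coding genes. The others had up to 18 coding exons, in Gpr107. Some lie near each other on the same strand. Gpr34 and Gpr82 lie 20.5 kb apart inside the gene Cask, Gpr18 and Gpr183 lie 36.8 kb apart inside Ubac2, and Gpr141b and Gpr141 lie 16.7 kb apart. Of the neighbours inside Cask, Gpr34 had 181 counts over the 6 libraries and Gpr82 had 2. Exons of 14 of the genes overlapped those of another gene, mostly on the opposite strand, and 10 genes lay inside an intron of another gene. Whether counting used strand is not given in the sources used here, so for these genes reads of the partner cannot be told apart. The overlap covered 39.9% of the exon bases of Gpr39 (with Lypd1), 24.8% of those of Gpr89 (with Pdzk1) and 15.4% of those of Gpr137 (with Bad).

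Upstream sequences were taken from RefSeq (GRCm38.p6), where 51 of the 72 genes matched. The stretches before the start sites of Gpr174, Gpr22 and Gpr158 are shown because these 3 are among the 5 genes with an unadjusted p under 0.05. Each runs 5′ to 3′ on the gene's strand, leaves out the gene's own annotated exons, and has motif matches in capitals. The motifs searched on both strands were AP-1 (TGANTCA), CRE (TGACGTCA), the CCAAT box (CCAAT), the TATA box (TATAAA) and the GC box (GGGCGG). None of the matches shown overlap. For Gpr174 the RefSeq start, at 107284346, lies inside the gene as GENCODE M21 gives it (X, 107255878 to 107296769, plus strand), so its stretch is not upstream of that annotated start.
Gpr174, chrX:107284096-107284345, plus strand: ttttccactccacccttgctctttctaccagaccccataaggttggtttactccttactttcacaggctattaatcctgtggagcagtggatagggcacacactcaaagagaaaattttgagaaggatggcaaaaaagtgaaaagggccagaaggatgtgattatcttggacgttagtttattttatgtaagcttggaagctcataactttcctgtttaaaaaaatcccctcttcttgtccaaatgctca
Gpr22, chr12:31713948-31714133, minus strand: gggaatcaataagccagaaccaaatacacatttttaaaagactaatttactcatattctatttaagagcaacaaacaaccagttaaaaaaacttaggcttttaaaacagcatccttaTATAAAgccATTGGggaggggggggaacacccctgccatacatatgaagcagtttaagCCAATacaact
Gpr158, chr2:21367317-21367541, plus strand: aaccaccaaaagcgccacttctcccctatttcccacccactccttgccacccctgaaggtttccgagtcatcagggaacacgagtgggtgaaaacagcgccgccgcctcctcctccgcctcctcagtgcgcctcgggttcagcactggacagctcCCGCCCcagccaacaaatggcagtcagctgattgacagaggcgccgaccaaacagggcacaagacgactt

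The 3 stretches differ in base composition. That of Gpr158 was 60.4% G and C with 13 CpG sites and held a GC box, that of Gpr22 was 36.0% G and C with 0 CpG sites and held a TATA box and 2 CCAAT boxes, and that of Gpr174 was 40.4% G and C with 1 CpG site and held none of the motifs. Over the 67 promoters of the matched genes (some genes have more than 1), in the 250 bases before the start, an AP-1 match stood in 4.48%, against 6.75% of all 32851 promoters. The shares were 1.49% and 1.55% for the CRE, 38.8% and 33.8% for the CCAAT box, 7.46% and 12.4% for the TATA box, and 34.3% and 32.7% for the GC box. A match is a description of letters, and its absence says only that the letters are not in this window.

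Levels were compared between genes per kb of exon, averaged over the 6 libraries. The highest mean over both groups was that of Gpr149, an orphan receptor, at 15.6 CPM per kb. Next came Gpr161, an orphan receptor of the primary cilium that restrains Hedgehog signalling, at 14.5, Gpr153, an orphan, at 12.9, and Gpr158, a class C receptor for glycine that binds RGS proteins, at 12.4 CPM per kb. These were followed by Gpr137, a lysosomal membrane protein, at 11.6, Gpr108, a Golgi protein, at 10.2, and Gpr89, a Golgi anion channel that regulates pH, at 7.78 CPM per kb. Gpr180 at 6.00, the clock-linked orphan Gpr176 at 5.34, the lysosomal cholesterol sensor Gpr155 at 5.18, Gpr85 at 4.89 and Gpr22 at 4.69 CPM per kb completed the first 12. The order of the group means differed, although treated replicate 1 had Gpr149 and Gpr161 highest, as the controls did. In the controls Gpr149 stood highest, at 19.1 ± 0.778, and Gpr161 next, at 17.2 ± 1.30 CPM per kb (SD, n = 3). In the treated libraries Gpr153, at 14.1 ± 1.67, and Gpr158, at 13.6 ± 1.60, had higher means than Gpr149, at 12.1 ± 3.78, and Gpr161, at 11.8 ± 4.19 CPM per kb (SD, n = 3), with differences within the spread of the libraries. Together the 72 genes took 0.0713% to 0.0887% of the gene counts of a library.

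**Figure D1:**
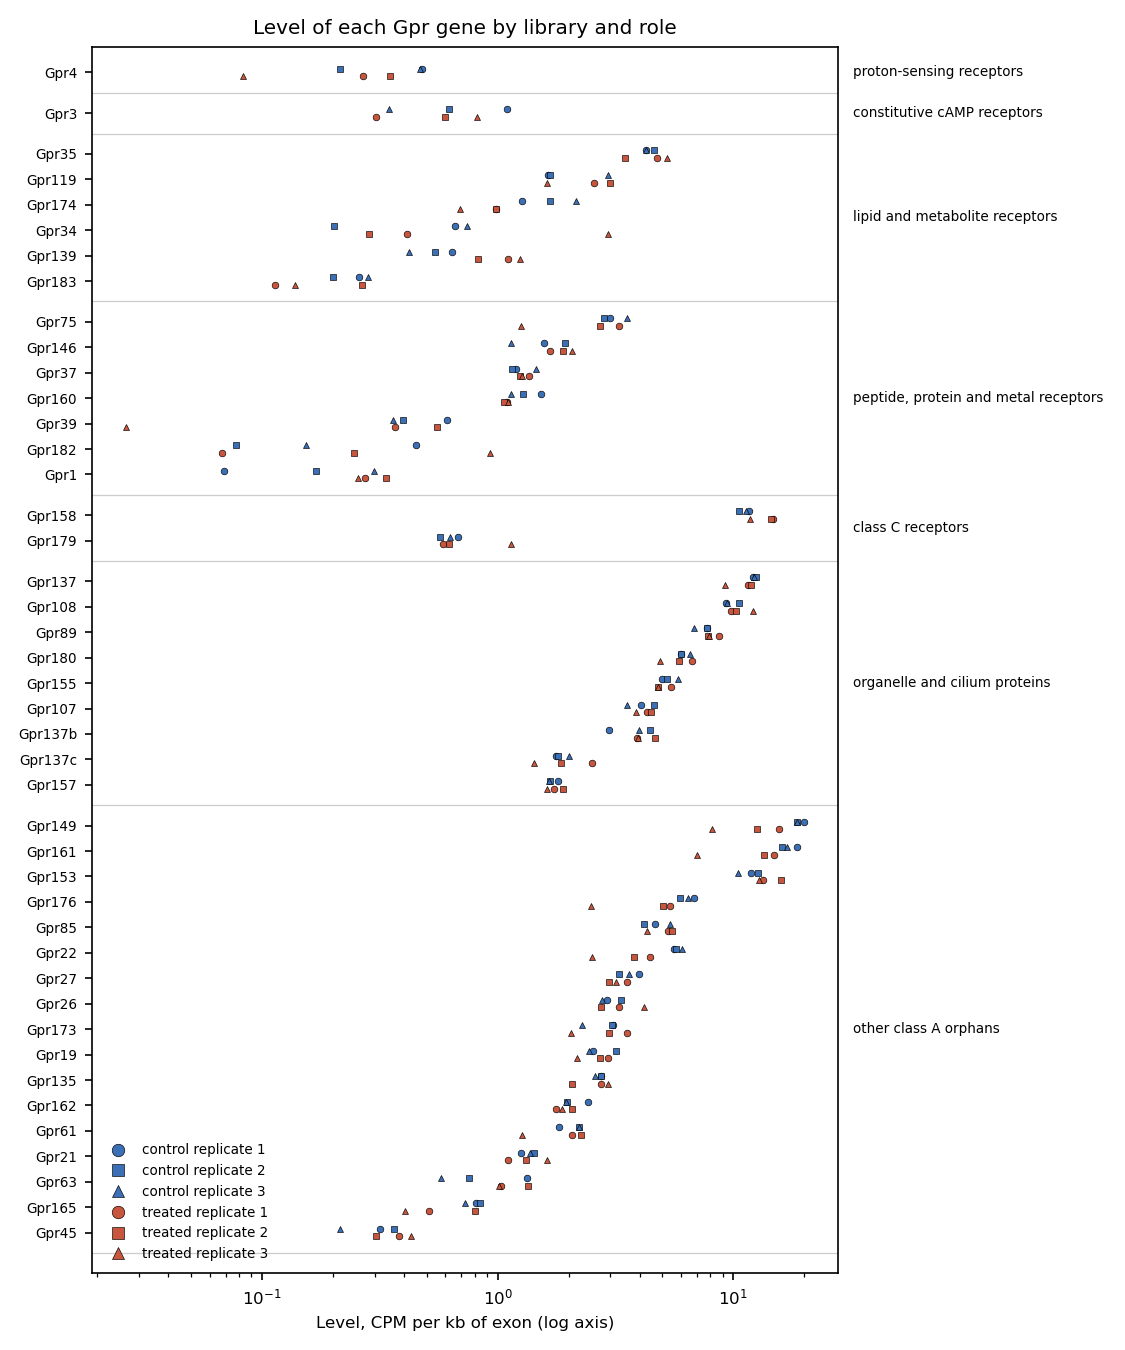
Level of 43 Gpr genes with at least 0.2 CPM per kb over all libraries, in CPM per kb of exon on a log axis, grouped by role, with 1 point per library (blue for control, red for treated, the shape giving the replicate number). Gpr149, Gpr161, Gpr153 and Gpr158 lie farthest to the right, and treated replicate 3 lies left of the other libraries for Gpr149, Gpr161, Gpr176 and Gpr22.

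Comparing treated with control ganglia asks how these receptor transcripts differ after S961 infusion of the animal. With edgeR's quasi-likelihood test, 0 of the 49 genes passed an adjusted p of 0.05, as did 0 of 16019 genes tested (0.00%), and the lowest adjusted p of the 49 was 0.654. At an unadjusted p under 0.05, 2 of the 49 were higher (4.08%, where 4.00% of all genes tested were) and 3 were lower (6.12%, where 2.67% were), in all 5 of 49 against 6.67% of all genes. Treated libraries all lay above the controls for 5 of the 49 (10.2%, against 7.07% of all genes) and all below for 8 (16.3%, against 7.63%), in all 26.5% against 14.7%. The median log2 fold change was -0.01 over the 49 and 0.02 over all genes tested, with 24 positive and 25 negative values. DESeq2 called 0 of the 49, where it called 0.567% of all genes, and edgeR with no filter on low counts called 0 of the 72, where it called 0.0941%. Because no gene passed, the values below are differences between these libraries. In bulk RNA, fewer cells of a type and less RNA per cell cannot be told apart.

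Treated replicate 3 was the lowest of the 6 libraries for 20 of the 49 genes (40.8%, against 34.2% of all genes tested) and the highest for 13 (26.5%, against 34.4%). Without it, 9 of 51 genes tested had an unadjusted p under 0.05 (17.6%, against 7.94% of all genes), 3 higher and 6 lower, while the lowest adjusted p was 0.143, for Gpr158. These were Gpr158, Gpr139 and Gpr153 on the higher side and Gpr149, Gpr22, Gpr174, Gpr141, Gpr161 and Gpr176 on the lower side. Groups were without overlap for 29.4% of the 51 genes in those 5 libraries, against 23.3% of all genes.

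**Figure D2:**
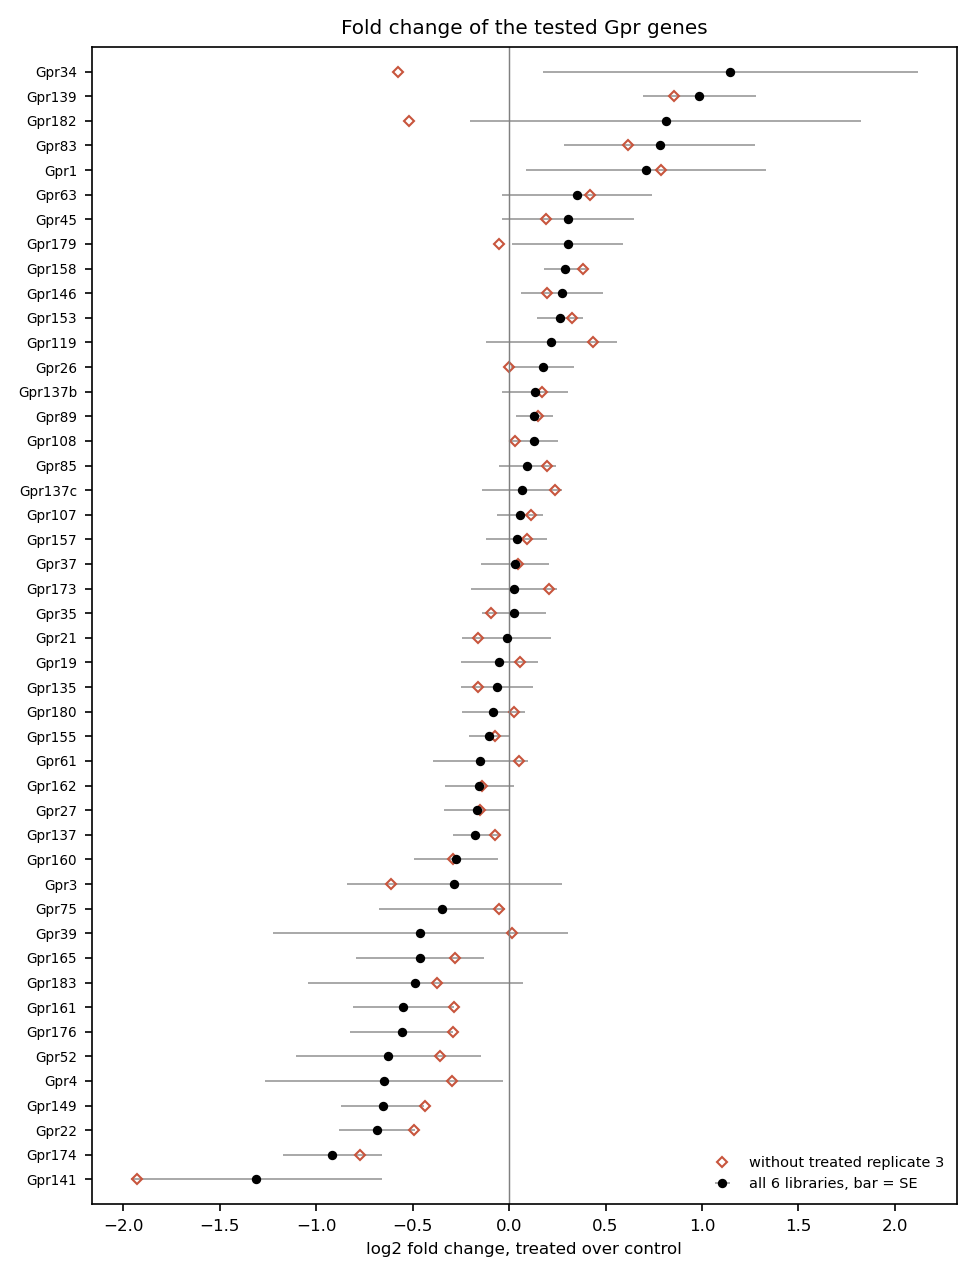
Log2 fold change (treated over control) of 46 of the 49 tested Gpr genes with its standard error as a bar (black, all 6 libraries), and the same without treated replicate 3 (open red diamonds). Values run from -1.31 for Gpr141 to 1.15 for Gpr34, and the diamonds of Gpr34, Gpr182 and Gpr179 are among those on the other side of 0.

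Class A orphans with no agreed ligand formed the largest group, 30 genes of which 20 were tested, 6 with positive and 14 with negative fold changes (median -0.15). The group includes Gpr141b, which was not tested and is annotated as a long noncoding RNA. Of the 20 tested, 5 lay below all controls in every treated library (25.0%, against 7.63% of all genes) and 1 lay above (7.07% of all genes did). Gpr149 had 85.9, 80.0 and 80.2 CPM in the controls and 67.0, 54.0 and 34.8 CPM in treated replicates 1, 2 and 3. The groups did not overlap, the controls lay close together and treated replicate 3 was lowest. The log2 fold change of Gpr149 was -0.65 ± 0.22 (SE) at an unadjusted p of 0.0183 and an edgeR adjusted p of 0.688, and it was -0.44 without treated replicate 3.

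Gpr22, an orphan receptor of brain and heart, had 25.9, 26.3 and 27.8 CPM in the controls and 20.4, 17.5 and 11.6 CPM in the treated libraries. Here too every treated library lay below every control. For Gpr22 the log2 fold change was -0.68 ± 0.20 (SE) at an edgeR adjusted p of 0.655, and -0.49 without treated replicate 3. Gpr22 lies inside an intron of Cog5 on the other strand. Gpr161 had 130, 112 and 118 CPM in the controls and 103, 93.7 and 48.7 CPM in the treated libraries, a log2 fold change of -0.55 ± 0.26. Gpr176 had 26.6, 23.0 and 25.0 CPM in the controls and 20.9, 19.6 and 9.70 CPM in the treated libraries, a log2 fold change of -0.56 ± 0.27. For both, every treated library lay below every control and treated replicate 3 lay farthest below. Without it the log2 fold change was -0.29 for each, with a smaller unadjusted edgeR p of 0.0103 for Gpr161 (0.0766 with it) and 0.0297 for Gpr176 (0.0738 with it), at adjusted p of 0.421 and 0.566.

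Gpr141, an orphan of myeloid cells, had 1.32, 0.692 and 1.76 CPM in the controls and 0.327, 0.314 and 0.955 CPM in the treated libraries. Its groups overlapped, with treated replicate 3 above control replicate 2, and its log2 fold change of -1.31 ± 0.65 was -1.93 without treated replicate 3. Gpr153 was the 1 class A orphan above its controls in every treated library, with 46.5, 49.6 and 41.0 CPM against 52.4, 62.4 and 50.03 CPM (log2 fold change 0.27 ± 0.12). That separation was narrow and was lost with DESeq2 size factors and with library size alone.

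Gpr85, Gpr27 and Gpr173 make up a small family of receptors that are highly conserved in the brain. Gpr85 had 19.0, 17.1 and 21.9 CPM in the controls and 21.6, 22.5 and 17.6 CPM in the treated libraries, with overlapping groups and a log2 fold change of 0.09 ± 0.15. Gpr27 was at -0.17 ± 0.17 and Gpr173 at 0.03 ± 0.22. Their levels over all libraries were 4.89, 3.42 and 2.83 CPM per kb, and none of the 3 had an unadjusted p under 0.05. The other tested orphans of this class were Gpr26, Gpr19, Gpr135, Gpr162, Gpr61, Gpr21, Gpr63, Gpr165, Gpr45 and Gpr52. Their log2 fold changes ran from -0.63 ± 0.48 for Gpr52 to 0.35 ± 0.39 for Gpr63, and all of their groups overlapped.

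The nodose marker sums given above were lower in every treated library, as were Gpr149, Gpr22, Gpr161 and Gpr176, and all were lowest in treated replicate 3. Not all class A orphans did so: Gpr153 was higher in every treated library, and 6 of the 20 tested had positive fold changes. Gpr149 was lower in treated replicate 2 than in treated replicate 1, whereas the nodose sum was higher in treated replicate 2. Other lists moved in these libraries too. The 6 markers of sympathetic neurons and glomus cells summed to 414 to 443 CPM in controls and to 417, 405 and 257 CPM in treated replicates 1, 2 and 3, with 6 of 6 negative fold changes. The 8 fat cell markers summed to 474 CPM in treated replicate 3 and to 8.12 to 55.5 CPM in the other 5 libraries. The part of the cell mix in the receptor values was not tested.

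**Figure D3:**
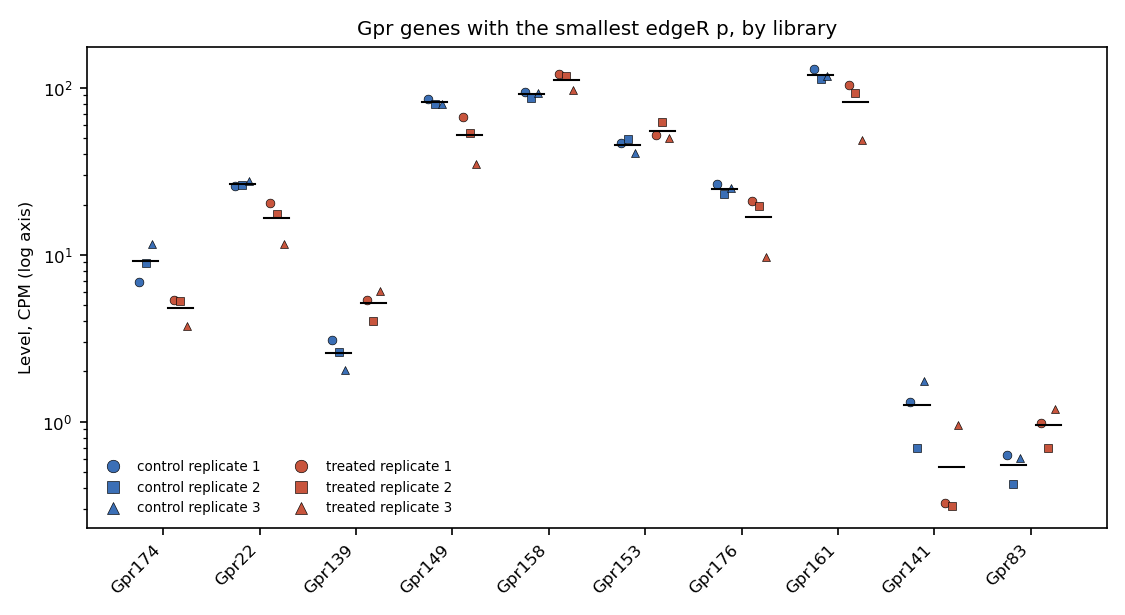
CPM on a log axis of 10 of the 12 tested Gpr genes with the smallest edgeR p, from left to right by p, with 1 point per library (blue for control, red for treated, the shape giving the replicate number) and a bar at each group mean. Groups do not overlap for Gpr174, Gpr22, Gpr139, Gpr149, Gpr158, Gpr153, Gpr176, Gpr161 and Gpr83, and they overlap for Gpr141.

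Receptors for lipids and metabolites numbered 12, of which 6 were tested. The smallest p of the 49 belonged to Gpr174, a receptor of lymphocytes for the lipid lysophosphatidylserine. It had 6.82, 8.96 and 11.6 CPM in the controls and 5.33, 5.29 and 3.74 CPM in the treated libraries, with no overlap. For Gpr174 the log2 fold change was -0.92 ± 0.26 (SE) at an unadjusted p of 0.00794 and an edgeR adjusted p of 0.654, and it was -0.77 without treated replicate 3. Lymphocyte markers were near 0: Cd3e had 3 counts and Cd3d had 4 over the 6 libraries, and the 9 markers found summed to 0.745 to 2.03 CPM in controls and to 0.803, 1.43 and 5.33 CPM in the treated libraries. Treated replicate 3 had the highest lymphocyte sum and the lowest level of Gpr174, and the part of lymphocytes in the Gpr174 values was not tested.

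Gpr139, which responds to the amino acids tryptophan and phenylalanine, had 3.10, 2.62 and 2.03 CPM in the controls and 5.36, 4.01 and 6.05 CPM in the treated libraries. All 3 treated libraries stood above the controls. On the log2 scale Gpr139 differed by 0.99 ± 0.29 (SE) at an unadjusted p of 0.0105 and an edgeR adjusted p of 0.670, and leaving out any 1 library gave 0.84 to 1.13. The jugular marker sums were higher in the same libraries, and treated replicate 2 was the lowest treated library in both. The part of the neuron mix was not tested.

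The remaining tested receptors of this group had overlapping groups. Gpr35, a receptor for tryptophan metabolites, had 20.6, 22.4 and 20.6 CPM in the controls and 22.9, 16.7 and 25.2 CPM in the treated libraries, a log2 fold change of 0.02 ± 0.16. Gpr119, which on gut hormone cells responds to oleoylethanolamide, had 3.73, 3.77 and 6.69 CPM in the controls against 5.83, 6.83 and 3.66 CPM in the treated libraries, a log2 fold change of 0.22 ± 0.34. Gpr183, an oxysterol receptor of immune cells, was at -0.49 ± 0.56, with 40 counts summed over control and 38 summed over treated libraries. Gpr34, a lysophosphatidylserine receptor of macrophages and microglia, was counted 24, 11 and 23 times in control replicates 1, 2 and 3 and 29, 17 and 77 times in the treated replicates. Its log2 fold change of 1.15 ± 0.97 rested on treated replicate 3 and was -0.57 without it. That library had the highest macrophage marker sum, and whether macrophages account for the Gpr34 counts was not tested.

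Among the class C receptors, Gpr158 stood at 94.8, 86.4 and 92.5 CPM in the controls and at 120, 117 and 96.5 CPM in the treated libraries. Treated replicate 3 lay just above the highest control and the other treated libraries well above, whereas the jugular marker sum was highest in treated replicate 3. On the log2 scale Gpr158 differed by 0.29 ± 0.11 (SE) at an unadjusted p of 0.0273 and an edgeR adjusted p of 0.721, and 0.38 without treated replicate 3. Gpr179, known for its part in retinal bipolar cells, had 5.42 to 6.48 CPM in the controls and 5.56, 5.92 and 10.8 CPM in the treated libraries. Its log2 fold change of 0.30 ± 0.29 was -0.05 without treated replicate 3.

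Of the proton-sensing receptors, Gpr4, which is known from blood vessels, averaged 1.11 ± 0.432 CPM over the controls and 0.674 ± 0.395 CPM over the treated libraries (SD, n = 3), a log2 fold change of -0.65 ± 0.62. Gpr4 was counted 24, 16 and 20 times in control replicates 1, 2 and 3 and 26, 29 and 3 times in the treated replicates. Its log2 fold change was -0.30 without treated replicate 3. Gpr132 was not tested and was counted 3, 1 and 0 times in control replicates 1, 2 and 3 and 0, 2 and 11 times in the treated replicates. Of the constitutively active receptors that raise cyclic AMP, Gpr3 was tested at -0.29 ± 0.56, while Gpr6 had 13 counts over all libraries. Gpr12 had 4 counts, all in treated replicate 3, and its 0 counts in the controls allow up to 0.0514 CPM over the 3 libraries together (3 counts, for counting error only).

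Genes grouped here under peptide, protein and metal ligands numbered 12, of which 8 were tested, 5 with positive and 3 with negative fold changes. The grouping does not settle the ligand of each gene. Gpr83, a receptor for a peptide cut from the proSAAS precursor, had 0.631, 0.423 and 0.608 CPM in the controls and 0.982, 0.697 and 1.19 CPM in the treated libraries. The groups did not overlap, but these are 9 to 33 counts a library, and the log2 fold change was 0.78 ± 0.49. Gpr160 had 6.48, 5.42 and 4.80 CPM in the controls and 4.61, 4.49 and 4.69 CPM in the treated libraries, just below (log2 fold change -0.28 ± 0.22). The chemerin receptor Gpr1 was at 0.71 ± 0.62, Gpr146 at 0.27 ± 0.21, Gpr37 at 0.03 ± 0.18, Gpr75 at -0.35 ± 0.33 and the zinc receptor Gpr39 at -0.46 ± 0.77, each with overlapping groups. Gpr75 had 3.66 CPM in treated replicate 3 and 7.98 to 10.3 CPM in the other 5 libraries, and its log2 fold change was -0.05 without treated replicate 3. Gpr39 counts were 32, 31 and 16 for control replicates 1, 2 and 3 and 37, 48 and 1 for the treated replicates, and without treated replicate 3 its log2 fold change was 0.02. Gpr182, a chemokine scavenger of endothelial cells, was counted 31, 8 and 9 times in control replicates 1, 2 and 3 and 9, 28 and 46 times in the treated replicates. Its log2 fold change of 0.81 ± 1.01 was -0.52 without treated replicate 3, where the 7 endothelial markers also had their highest sum of 149 CPM, against 75.9 to 103 CPM in the other 5 libraries. Gpr4, also known from blood vessels, was instead lowest in treated replicate 3. The part of endothelial cells in these values was not tested.

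**Figure D4:**
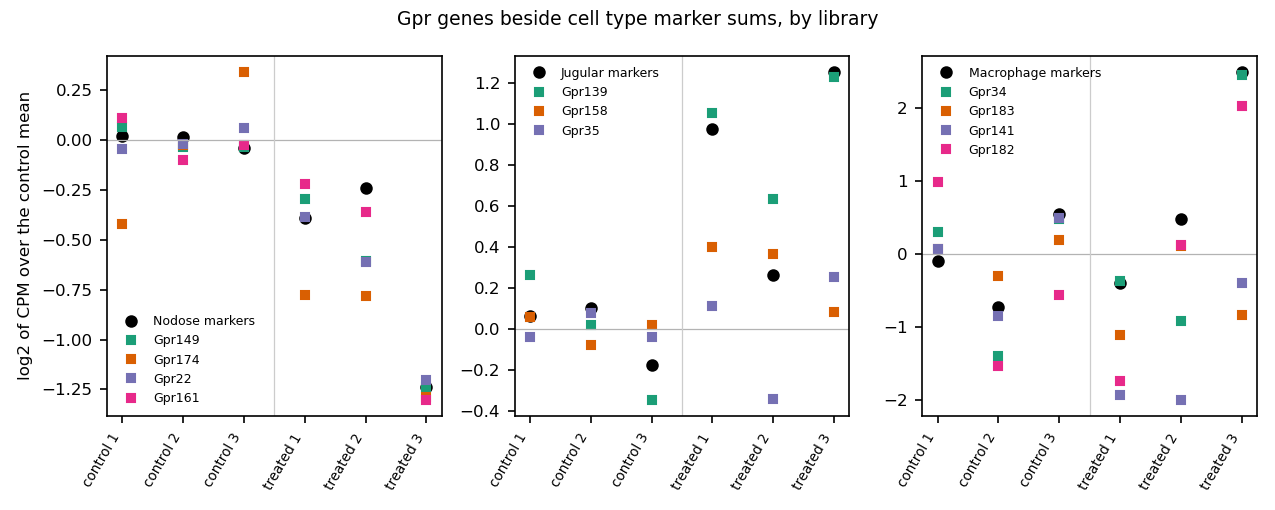
Log2 of each library's CPM over the control mean for the summed nodose, jugular and macrophage markers (black circles) and for 3 or 4 Gpr genes beside each (colored squares), chosen after their values were seen. In the left panel Gpr149, Gpr174, Gpr22 and Gpr161 are lowest in treated replicate 3, as is the nodose sum. In the middle panel Gpr139, Gpr35 and the jugular sum are highest in treated replicate 3, where Gpr158 has its lowest treated value. In treated replicate 2 Gpr35 lies below every control, whereas the jugular sum lies above every control. In the right panel Gpr34, Gpr182 and the macrophage sum are highest there while Gpr141 and Gpr183 are not.

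All 9 Golgi, lysosome and cilium proteins were tested, and the median size of their fold changes was the smallest of the role groups, 0.10 on the log2 scale against 0.28 over the 49 genes and 0.16 over all genes. Gpr89 had 41.4, 41.7 and 36.5 CPM in the controls and 46.5, 42.0 and 42.4 CPM in the treated libraries, barely above (log2 fold change 0.13 ± 0.10). Gpr137 had 41.0, 42.6 and 41.7 CPM in the controls and 39.1, 40.3 and 31.3 CPM in the treated libraries, a log2 fold change of -0.17 ± 0.12. Its log2 fold change was -0.07 without treated replicate 3. Both separations were lost when libraries were scaled by size alone, and both genes share exon bases with a neighbour. Gpr108 had 26.8, 30.3 and 26.8 CPM in the controls and 27.9, 29.3 and 34.8 CPM in the treated libraries, with overlapping groups. Gpr180 had 11.3, 11.2 and 12.3 CPM against 12.5, 11.0 and 9.15 CPM, and Gpr155 had 33.4, 35.1 and 39.1 CPM against 36.2, 31.8 and 32.0 CPM, both overlapping. Gpr108 was at 0.13 ± 0.12, Gpr180 at -0.08 ± 0.16 and Gpr155 at -0.10 ± 0.11. The other 4, Gpr107, Gpr137b, Gpr137c and Gpr157, had log2 fold changes of 0.04 to 0.14 with overlapping groups.

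Of the 23 genes below the filter, 13 had at least 10 counts over the 6 libraries. Among these were Gpr152, Gpr62, Gpr20, Gpr55, Gpr141b, Gpr15, Gpr132, Gpr101, Gpr6, Gpr143, Gpr18 and Gpr17, with 11 to 48 counts. Gpr152 was counted 3, 15 and 1 times in control replicates 1, 2 and 3 and 14, 14 and 1 times in the treated replicates, with overlapping groups. The last 10 had 1 to 7 counts, among them Gpr171, Gpr142, Gpr50, Gpr33, Gpr12, Gpr82, Gpr84, Gpr25 and Gpr31b. Over all 6 libraries, 3 counts correspond to 0.0226 CPM, so differences in the rarest genes were not detectable at this depth.

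Genes that act with these receptors were read from 6 lists of G protein subunits, RGS proteins, receptor kinases and arrestins, adenylyl cyclases and accessory proteins. Of their 76 tested genes 0 passed an adjusted p of 0.05 with edgeR, 4 were higher and 5 lower at an unadjusted p under 0.05 (4.00% and 2.67% of all genes were), and the median log2 fold change was -0.02. The smallest p was that of Adcy8, a calcium-stimulated adenylyl cyclase, which had 14.4, 17.0 and 15.4 CPM in the controls and 9.11, 9.58 and 5.73 CPM in the treated libraries. Its fold change on the log2 scale was -0.93 ± 0.21 (SE), its edgeR adjusted p was 0.587, and DESeq2 called it at an adjusted p of 0.0357. Gng4, a G protein gamma subunit, had 21.8, 24.2 and 21.4 CPM in the controls and 17.2, 15.2 and 15.7 CPM in the treated libraries, a log2 fold change of -0.49 ± 0.12. Both genes had all treated libraries below the controls. Of the 76, 11 lay below all controls in this way and 5 lay above (7.63% and 7.07% of all genes did). Adhesion receptors, many of which once carried Gpr names, numbered 25, of which 21 were tested. Of these 2 were higher and 0 lower at an unadjusted p under 0.05, set against the same shares of all genes, 4.00% and 2.67%, with a median log2 fold change of 0.10. The smallest p among them was that of Adgrd1, at 3.32, 1.81 and 2.57 CPM in the controls and 4.29, 7.25 and 7.40 CPM in the treated libraries (log2 fold change 1.30 ± 0.34). Of 37 related receptors on a list of former Gpr names, 17 were tested, 2 were higher and 0 lower at an unadjusted p under 0.05 (4.00% and 2.67% of all genes), and the median log2 fold change was 0.09.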

How the data were processed

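The authors deposited a file of counts for each library, giving raw reads over the exons of every gene. Per the submitters' processing notes the tools were bcl2fastq 2.20, STAR 2.7.7a, DESeq2 and edgeR with build mm10. Which program counted the reads, with which annotation and strand setting, is not given in the sources used here. Per the labels' protocols, libraries came from about 6 ng of total RNA (integrity numbers 6.6 to 9.1 over the study) with a strand-specific kit. The 3 summary lines that end each file were left out.

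Counts were fitted with edgeR 4.0.16 (R 4.3.3): filterByExpr with a minimum count of 10, TMM scaling, a robust quasi-likelihood F test of treated against control over 16019 genes, and Benjamini-Hochberg adjustment over all of them at 0.05. The standard error is the fold change divided by the square root of F. CPM are scaled by TMM, and exon lengths are unions of GENCODE M21 exons (GRCm38, the build of mm10), with Gpr52 unmatched. The procedure was tested on simulated data in which no library stood apart, so that test does not cover the effect of treated replicate 3. Alternatives used limma 3.58.1 and DESeq2 1.42.0. Genes given in full are the 12 with the smallest p and the 12 with the highest level per kb, 18 in all. Some of the genes are counted in the totals but not reported here by name. The members, lists and role groups were chosen with earlier results of these data known.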

Additional observations from a re-analysis of the deposited data

How the results depend on the processing

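No Gpr gene passed an adjusted p of 0.05 under any of the 15 alternatives, where the lowest adjusted p was 0.143. Over all genes, calls numbered 89 with DESeq2, 26 without the low-count filter, 8 with sample weights in limma-voom, and 0 to 9 with 1 library left out (7 without treated replicate 1 and 9 without treated replicate 3). Gpr genes with an unadjusted p under 0.05 numbered 4 higher and 7 lower with sample weights (8.16% and 14.3% of 49, against 5.75% and 5.86% of all genes). DESeq2 gave 2 higher and 5 lower (4.08% and 10.2%, against 4.81% and 3.16%). Leaving out 1 library gave 1 to 3 higher (1.96% to 5.88%, against 1.96% to 6.60% of all genes). The same fits gave 2 to 6 lower (3.92% to 11.8%, against 1.24% to 4.31% of all genes). Scaled by library size alone, 3 of 49 Gpr genes had all treated libraries above all controls and 7 all below (7.47% and 6.53% of all genes). Among the 32 with at least 5 CPM in 3 libraries, 3 lay above and 6 below (7.07% and 8.68% of all genes). With 1 library left out, 5 to 9 lay above and 8 to 13 below. Groups were then without overlap for 29.4% to 40.8% of the Gpr genes tested and 20.7% to 30.9% of all genes. With all libraries the shares were 26.5% and 14.7%. The median log2 fold change was -0.11 to 0.0047 with 1 library left out, the lowest without treated replicate 1. Among the signalling lists DESeq2 called 1 gene, Adcy8.

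Same-numbered libraries deviated together with correlations of -0.0033, 0.42 and 0.31, and libraries of different numbers with -0.38 to 0.19. Those numbered 2 and 3 thus correlated best with their own number, and those numbered 1 did not. Whether the numbers pair the samples was not settled, and the main fit did not pair them. With the replicate number as a block, edgeR called 1 gene over all and 0 Gpr genes, with 4 higher and 5 lower at an unadjusted p under 0.05 (8.16% and 10.2%, against 5.48% and 3.95% of all genes).

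Of the 49 genes, 30 kept the sign of their fold change under every alternative run and 19 did not. With sample weights the log2 fold change was -0.44 for Gpr34, -0.35 for Gpr182, -0.16 for Gpr35, -0.028 for Gpr179, -0.0051 for Gpr26, 0.085 for Gpr61 and 0.042 for Gpr19, and with limma-voom alone it was -0.039 for Gpr35. With 1 library left out the log2 fold change ran from -0.57 to 1.61 for Gpr34, -0.054 to 0.46 for Gpr179, -0.52 to 1.80 for Gpr182, -0.015 to 0.26 for Gpr137b, -0.31 to 0.053 for Gpr61, -1.08 to 0.016 for Gpr39, -0.61 to 0.21 for Gpr3, -0.20 to 0.026 for Gpr180, -0.040 to 0.15 for Gpr107, -0.16 to 0.063 for Gpr135, -0.18 to 0.24 for Gpr137c, -0.031 to 0.091 for Gpr157, -0.16 to 0.072 for Gpr19, -0.044 to 0.14 for Gpr37, -0.096 to 0.17 for Gpr35, -0.17 to 0.20 for Gpr173 and -0.16 to 0.10 for Gpr21. The cause was not tested. Depth limited the 23 genes below the filter, which have no test.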
